A study of Drosophila melanogaster with 2 samples.

Results

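Forkhead family genes encode transcription factors that share the winged-helix DNA-binding fold. The 10 members described here, of 13945 protein-coding genes on the chromosome arms, were taken by gene symbol: fkh, slp1, slp2, croc, jumu, CHES-1-like, foxo, FoxK, FoxP and fd59A. All 10 symbols were found in the gene models. The question was where chromatin bound by the T-box factor org-1 lies at these genes. A summit is the position of highest enrichment in a peak, and it was given to every gene that held it or had an end at most 5 kb away.

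Chromatin immunoprecipitation with sequencing (ChIP-seq) was done on embryos of both sexes, 2 to 24 hours old, of the strain org-1-GFP. The strain stably expresses org-1 with green fluorescent protein at its C-terminal end. Per the description in the labels an antibody against the fluorescent protein was used, while the antibody field names org-1. Both libraries belong to this 1 group, as biological replicates 1 and 2, so there is no second condition. The tagged line is the same in both, and the promoter that drives the transgene is not given in the sources used here. Whole embryos over a wide age range were pooled, so strong binding in few cells and weak binding in many cannot be told apart.

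Forkhead factors pattern the embryo and regulate metabolism. fkh, the founder of the family and a FoxA gene, is needed for the gut and the salivary glands. The neighbouring FoxG genes slp1 and slp2 act in segmentation and help to maintain wingless expression, and jumu and CHES-1-like act in the cardiac progenitors of the mesoderm. foxo is the effector that insulin signalling holds out of the nucleus, and croc acts in the embryonic head.

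Summits were found at 7 of the 10 members (70.0%), and 41.0% of all protein-coding genes had one by the same rule. The members were chosen with earlier results of these data known, and 2 of the 7 forkhead genes outside the list had a summit (28.6%). The optimal list, which holds the 4434 peaks that passed the authors' irreproducible discovery rate threshold, placed 23 summits at the 7 members with one. Of the 4434 peaks, 4264 have a region in both replicates, as have all 23 member summits. CHES-1-like carried 10, foxo 4, fkh, slp1, jumu and FoxK 2 each, and slp2 1. croc, FoxP and fd59A carried none. The signal value, a score that the authors deposited for each peak, ran from 117 to 719 at these summits. Its median was 310 there, beside 164 for all optimal peaks. Replicate values come from each replicate's own list, and whether the lists share a scale is not given in the sources, so a replicate being the higher refers to the values as deposited. Read depth behind the values is unknown, and with 2 libraries of 1 group no difference was tested.

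Gene length differed between members, and longer genes have more room for summits. When all genes were split by length into 4 groups of like size, a summit was found at 27.1% of the shortest, then at 37.5%, at 42.5% and at 56.7% of the longest. No member is among the shortest group. slp1, with summits, is the 1 member in the next group. In the group after that, fkh and slp2 had summits and croc, FoxP and fd59A had none. All 4 members in the longest group had summits (jumu, CHES-1-like, foxo and FoxK).

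The same 7 members had a summit among as many of the strongest regions of each replicate alone, where 40.4% of all genes had one in replicate 1 and 40.5% in replicate 2. Restricting the list to the 1000 strongest peaks left 5 members (fkh, slp2, jumu, CHES-1-like and foxo), beside 15.0% of all genes. Of the 23 summits, 14 (60.9%) were among those 1000 peaks, which are 22.6% of the optimal list. CHES-1-like held 7 of these 14 and foxo 4, while fkh, slp2 and jumu held 1 each. Ordered by their strongest summit among the 5714 genes with one, fkh was at place 380, slp2 at 468, CHES-1-like at 505 and foxo at 954. jumu followed at 1772, FoxK at 2312 and slp1 at 4007. The median of the strongest signal was 453 over the 7 members and 214 over all genes with a summit. The authors' −log10 q value was at its highest, 3.78, for 21 of the 23 summits and for 67.5% of all optimal peaks.

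All 23 summits had a start of the member itself as the nearest protein-coding start. Over all genes this was so for 39.5% of the 10022 pairings of a gene with a summit in its 5 kb window. With starts of any kind counted, the nearest was the member's own at 18 of the 23 summits. When each summit was given only to the gene with the nearest start, 8 members received one, beside 19.1% of all genes. The added member was croc, through a summit beyond its 5 kb window. With a 2 kb window 6 members had a summit, beside 28.0% of all genes, and with a 10 kb window 8 had one, beside 56.2%. Summits inside the gene itself were found at 3 members (jumu, CHES-1-like and FoxK), beside 11.6% of all genes. Counting any overlap of a region with the 5 kb window gave 7 members, beside 41.8%.

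The sequences under the strongest summits show how the windows differ in base composition and in words. Each run is the 101 bp centred on the summit in build dm6, on the strand of the gene, read from release 6 of the genome. Capitals mark the words searched on both strands that were found, and none of the windows overlaps an annotated exon. The fkh window lies at chr3R:28585450-28585550, minus strand, and the slp2 window at chr2L:3832477-3832577, plus strand. The CHES-1-like window is chrX:7706888-7706988, minus strand, and the foxo window chr3R:14053545-14053645, plus strand. The jumu window is chr3R:10357006-10357106, plus strand, and the FoxK window chr3L:11118780-11118880, minus strand.
fkh: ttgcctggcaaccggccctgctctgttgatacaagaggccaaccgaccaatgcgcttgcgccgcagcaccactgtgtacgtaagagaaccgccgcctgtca
slp2: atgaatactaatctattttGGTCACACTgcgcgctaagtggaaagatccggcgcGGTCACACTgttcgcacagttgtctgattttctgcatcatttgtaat
CHES-1-like: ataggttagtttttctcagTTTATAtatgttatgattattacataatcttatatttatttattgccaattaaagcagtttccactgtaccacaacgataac
foxo: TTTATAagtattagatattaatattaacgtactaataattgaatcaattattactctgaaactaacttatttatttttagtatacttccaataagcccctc
jumu: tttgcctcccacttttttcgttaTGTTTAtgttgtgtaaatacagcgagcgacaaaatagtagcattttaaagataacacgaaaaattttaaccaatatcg
FoxK: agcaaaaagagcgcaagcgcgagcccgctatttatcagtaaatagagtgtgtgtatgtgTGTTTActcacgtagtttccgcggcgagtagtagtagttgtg

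The fkh window held none of the words and 60.4% GC, the highest of the 23 summits. The window of the strongest slp1 summit (signal 153) is not printed, and it also held none of the words. The slp2 window held GGTCACACT, the core of a word known as Motif 1 of Drosophila core promoters, in 2 copies. That word was added after the window had been read. It was present at 16 of all 4434 optimal summits (0.361%) and in 0.203% of windows centred 400 bp to either side. The slp2 window was the 1 optimal window with more than 1 copy, and it had the highest signal of the 16. The CHES-1-like and foxo windows held TATAAA, printed as its reverse complement, and 25.7% and 21.8% GC. The jumu and FoxK windows held the forkhead word TAAACA, also in reverse complement.

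Of the gut and salivary gland regulator fkh (FBgn0000659, 3R from 28580976 to 28585264, minus strand), the main summit lay 236 bp upstream of its start. It had the highest signal of any member summit (719, rank 141 of the optimal list), with 255 in replicate 1 and 458 in replicate 2. These were rank 441 of the 30000 candidate regions of replicate 1 and rank 55 of those of replicate 2. The peak was therefore the higher in replicate 2 by value and by rank, with a log2 ratio of replicate 1 over 2 of -0.84. A second, weaker summit lay 1758 bp upstream (117, with 68.1 and 47.9), and the nearest start of any kind to it was that of the non-coding gene lncRNA:CR43126, at 974 bp. Outside the 5 kb window, 3 further summits had fkh as the nearest start, at 5444 bp (158), 14045 bp (113) and 15332 bp (102).

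The sloppy paired genes lie next to each other on 2L, and their summits lay between them. slp1 (FBgn0003430, 3825675 to 3827099, plus strand) had summits 2077 and 2276 bp downstream of its start, past its end, with signals of 153 and 132. These were 199 bp apart and overlapped the same region of each replicate (116 in replicate 1 and 51.3 in replicate 2), so they are not separate measurements there. slp2 (FBgn0004567, 3836840 to 3839185, plus strand) had 1 summit, 4313 bp upstream of its start, with a signal of 656 (rank 171) and values of 278 and 377. Like that of fkh, it was the higher in replicate 2. This summit lay 5428 bp from the nearer end of slp1, just outside the slp1 window, and just inside that of slp2. No annotated start of any kind was closer to it than that of slp2.

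The cardiac progenitor genes jumu and CHES-1-like carried intronic summits. jumu (FBgn0015396, 3R from 10350182 to 10361612, plus strand) had a summit 6874 bp into the gene with a signal of 304, and 181 and 124 in the replicates. The other, 1343 bp into the gene (259), was uneven, with 217 in replicate 1 and 43.5 in replicate 2. Its rank in replicate 2 was 5408, and it was among the 3 member summits outside the 4434 strongest regions of that replicate. At 2.31 its log2 ratio of replicate 1 over 2 was the highest of the 23 summits.

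CHES-1-like (FBgn0029504, X from 7682338 to 7709385, minus strand) had the most summits of the family. Its 10 summits spanned 16985 bp, at gaps of 706 to 4158 bp with a median of 1390 bp, and all lay inside the gene. Of all protein-coding genes, 16 (0.115%) had 10 or more. The gene has 4 annotated start positions, and 2 of the 10 summits were in promoters (within 500 bp of a start) and 8 in introns. The highest signals were 630 (378 in replicate 1 and 255 in replicate 2), 608 (458 and 156) and 562 (355 and 213). The first 2 lay 1975 and 668 bp upstream of an internal start, and the third 189 bp downstream of the outermost start. The nearest start of any kind to the first was that of the non-coding gene lncRNA:CR43287, at 837 bp. The next were 482, 424, 348 and 316, and the 3 lowest 189, 161 and 155. Replicate 1 had the higher value at 9 of the 10, the exception being the summit of 348 (138 and 209). Per 10 kb of window the gene had 2.70 summits, beside 1.19 over all members, 0.829 over the members without it and 0.425 over all genes.

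The insulin effector foxo (FBgn0038197, 3R from 14056945 to 14087978, plus strand) carried its summits upstream of the gene and none inside it. The strongest lay 3350 bp upstream of the start (453, rank 395), with 317 in replicate 1 and 138 in replicate 2. The next lay 4595 bp upstream (357, with 214 and 139), close to the edge of the window. The 2 nearest to the start, at 510 bp (310) and 288 bp (303), lay 222 bp apart and shared a region of replicate 1 (260), with 69.0 and 60.7 in replicate 2. All 4 were the higher in replicate 1. Inside the 31034 bp gene the pooled candidates stayed below the optimal list, whose lowest signal was 101, with 91.5 as the highest, 20307 bp from the 5′ end.

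FoxK (FBgn0036134, 3L from 11114169 to 11120783, minus strand) had both its summits within 500 bp of one of its 4 annotated starts. The first lay 364 bp upstream of a start (252, with 106 in replicate 1 and 129 in replicate 2), and the second 329 bp downstream of another (211, with 77.2 and 129). Both were the higher in replicate 2, and both windows held 46.5% GC. A further summit (102) lay 6538 bp from the gene, in the promoter of CG32073.

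**Figure D1:**
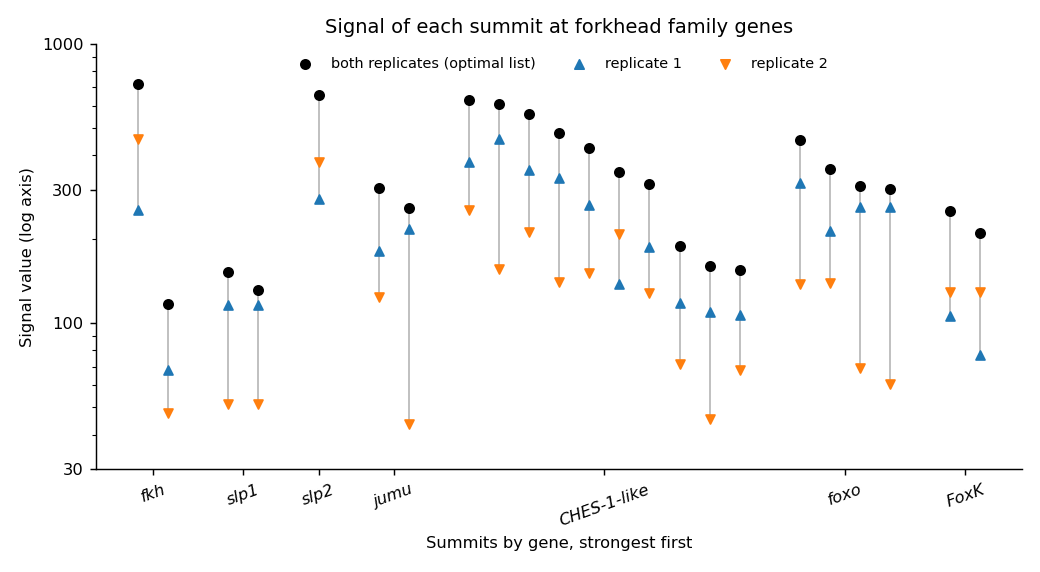
Signal value (log axis) of each of the 23 optimal summits at the 7 members with one, strongest first within a gene. Black points are the optimal list, triangles the strongest overlapping region of each replicate, and the fkh, slp2 and FoxK leaders have the replicate 2 triangle above that of replicate 1. The 2 slp1 summits have the same replicate values (116 and 51.3), as does replicate 1 for the last 2 foxo summits (260).

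**Figure D2:**
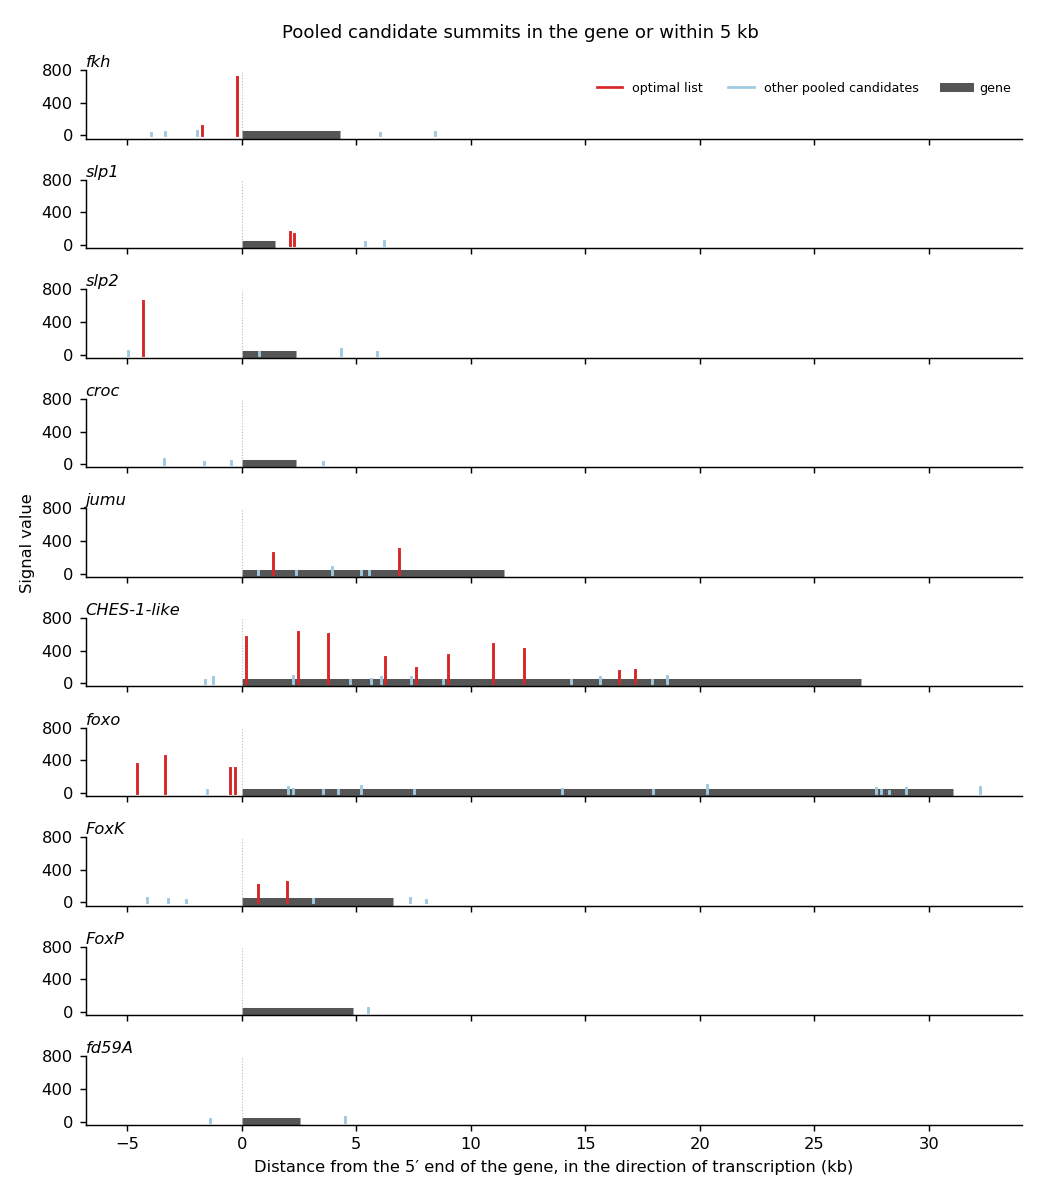
Position of every pooled candidate summit (x axis, kb from the 5′ end of each gene in the direction of transcription) against its signal value (y axis), for the 10 members. Red lines are summits of the optimal list, pale lines the other candidates and grey bars the genes. The 10 red lines of CHES-1-like are inside the gene and the 4 of foxo upstream of it.

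Of the 23 summits, 6 were promoter summits, 10 were intronic and 7 were intergenic, with none in a coding exon or UTR. In the whole optimal list promoters held 37.6%, introns 43.1% and intergenic sequence 17.9%. CHES-1-like alone supplied 8 of the 10 intronic summits. Without it, 13 summits at 6 members were left.

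The balance of the replicates differed between members and went with base composition. Replicate 2 had the higher signal at 5 of the 23 summits (21.7%), beside 31.1% of the 4264 optimal peaks with a region in both replicates. Of the 4 member summits with 40% GC or more within 50 bp (the main fkh summit, slp2 and both of FoxK), all 4 were higher in replicate 2. Of the 19 with less GC, 1 was. Over all optimal peaks the shares were 55.5% of 1058 and 23.1% of 3206. Spearman's rho between the log2 ratio of replicate 1 over 2 and GC was -0.46 over the 23 summits and -0.47 over the 4264 peaks. These describe peaks that come from the same 2 libraries, and the 40% limit was chosen after the values had been seen. The part of base composition in the signals of these genes was not tested.

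**Figure D3:**
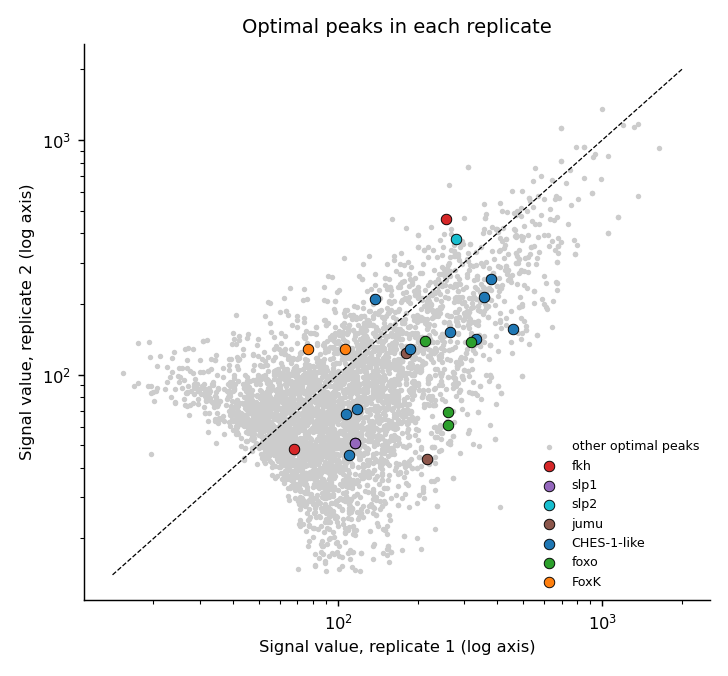
Signal value of the optimal peaks in replicate 1 (x axis) and replicate 2 (y axis), both on log axes, with the member summits in colour and the dashed line at equal values. Above the line are the main fkh summit (255 and 458), slp2 (278 and 377), both FoxK summits and 1 of CHES-1-like, and the other 18 member summits are below it.

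**Figure D4:**
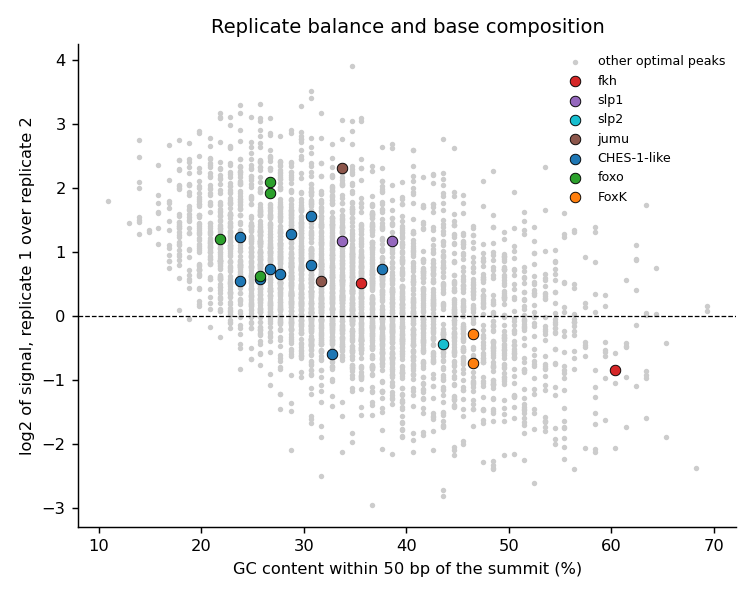
The log2 ratio of the signal in replicate 1 over replicate 2 (y axis) against the GC content within 50 bp of the summit (x axis, %), for all optimal peaks with a region in both replicates (grey) and the member summits (colour). The fkh summit with 60.4% GC has a ratio of -0.84, and the foxo summits, with 21.8% to 26.7% GC, have ratios of 0.62 to 2.10.

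Short DNA words known from promoters and factor binding were counted at the summits, on small numbers. The forkhead word TAAACA was present within 50 bp of 3 of the 23 summits (13.0%), at fkh (the weaker summit), jumu and FoxK, and in 7 of the 46 windows 400 bp to either side (15.2%). It was present at 16.6% of all optimal summits and in 9.62% of their flanks. TATAAA, the TATA box word, was at 8 member summits (34.8%, against 13.0% of their flanks), 5 of them at CHES-1-like and 3 at foxo. Over all optimal peaks it was at 20.1% and in 10.2% of flanks. The member windows at the summit had a median of 30.7% GC and the flanks 41.6%, and its part in the word counts was not tested. AGGTGTG, the T-box word, was in none of the 23 windows nor in their 46 flanks. It was in 0.586% of all optimal windows and in 0.823% of their flanks, so it is rare in both and 23 windows are too few to compare. The DREF word TATCGATA was at no member summit and at 38 of all 4434. The word of GATA factors, GATAAG, was also at none, and at 266 of all. The homeodomain word TAATTA was at 2 member summits (8.95% of all optimal summits had it), the word of the GAGA factor, GAGAG, at 2 (10.6% of all), and an E-box, CATATG, at 1 (4.44% of all). The GAGA factor word was more frequent in the member flanks (28.3%) than at the member summits (8.70%), as it was in the whole list (15.6% and 10.6%).

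The 3 members without a summit had only weak candidate regions. In the pooled list of 30000 candidates all 10 members had a region in the window, as had 83.3% of all genes. The strongest at croc (FBgn0014143, 3L from 21474133 to 21476479, minus strand) had a signal of 59.4 (rank 8859), with 21.8 in replicate 1 and 43.5 in replicate 2. An optimal summit with a signal of 298 (164 and 132) lay 9649 bp from the gene, and croc had the nearest start, at 11995 bp. At FoxP (FBgn0262477, 3R from 9726020 to 9730872, minus strand), which acts in the nervous system, the single pooled candidate (43.1, rank 13442) lay 254 bp from the start of hyd. It overlapped a region of replicate 2 (38.5) and none of replicate 1. The strongest candidate at fd59A (FBgn0004896, 2R from 22868159 to 22870706, plus strand), a FoxD gene, had a signal of 52.5 (rank 10374) and lay 1476 bp from the start of CG13532. fd59A had 6 candidate regions in replicate 2 (the highest at 33.0) and none in replicate 1.

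Candidate regions of the replicates fell unevenly over the members. CHES-1-like had 26 in replicate 1 and 18 in replicate 2, and foxo 28 and 12. At FoxP the counts were 1 and 5, at jumu 5 and 10 and at fkh 6 and 9. Over all genes, 51.2% had more regions in replicate 2 and 29.9% more in replicate 1.

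**Figure D5:**
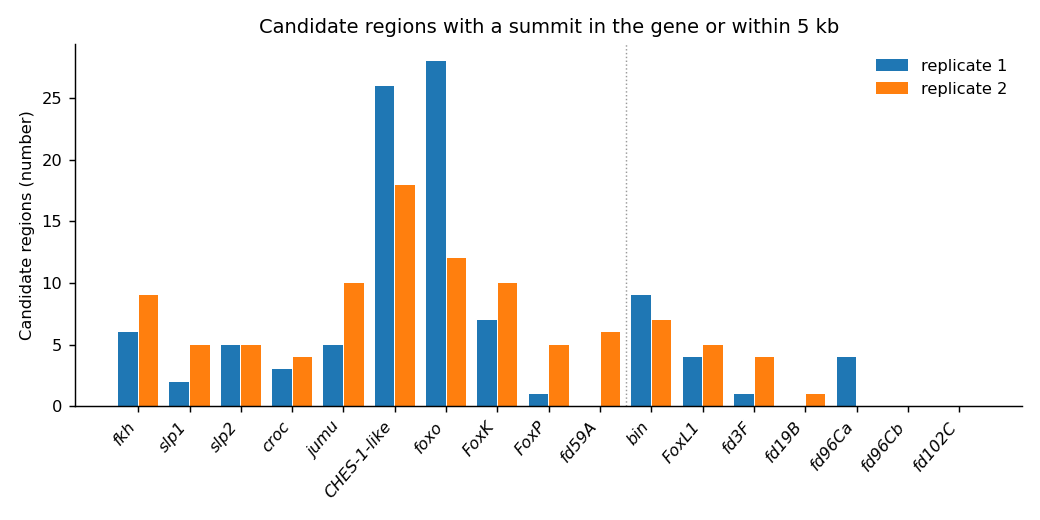
Number of candidate regions (y axis) of replicate 1 and replicate 2 whose summit fell in the window of each gene, for the 10 members (left of the dotted line) and the other 7 forkhead genes. foxo has 28 in replicate 1 and 12 in replicate 2, fd59A has 0 and 6, and fd96Cb and fd102C have none.

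Of the other 7 forkhead genes, 2 had a summit (28.6%, beside 41.0% of all genes). bin, a FoxF gene needed for the visceral mesoderm, had a pair of summits 202 bp apart, 1364 and 1162 bp upstream of its start (389 and 314), over the same region of each replicate (320 and 83.6). FoxL1 had 1, 1944 bp upstream (119, with 35.1 and 86.6). fd3F, fd19B, fd96Ca, fd96Cb and fd102C had none. The pooled list also held no candidate at fd96Cb or fd102C.

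Genes that signal to foxo or are known as its targets were also listed with earlier results of these data known. Of these 22 genes, 15 had a summit (68.2%, beside 41.0% of all genes). With the 1000 strongest peaks the order turned, with 2 of the 22 (9.09%) beside 15.0% of all genes. The list is also one of long genes: 14 of the 22 are in the longest of the 4 length groups, where 11 had a summit, beside 56.7% of all genes in that group. In the group before it 3 of 7 had one, beside 42.5%. The highest signal was in an intron of InR, the insulin receptor gene, 647 bp from a start (686, with 268 in replicate 1 and 415 in replicate 2). It was followed by ImpL2, which encodes a secreted binding protein of insulin-like peptides (597, with 277 and 320), in an intron. The nearest start to that summit was that of CG46460, at 1081 bp. At Ilp6, an insulin-like peptide gene, the summit (256, rank 1099) lay in an intron of Raf, and at Pi3K21B, the adaptor subunit of phosphatidylinositol 3-kinase, it lay 95 bp from the start (241, with 206 and 103). chico and Pi3K92E were among the 7 without one.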

How the data were processed

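Peaks of 2 replicates were used as 4 lists in build dm6 (optimal, pooled and each replicate). Per the file descriptions deposited with the libraries, the authors made the candidate lists from alignments with a control alignment, and thresholded the optimal list on the irreproducible discovery rate. Neither aligner nor peak caller is named in the sources used here. Each region has a deposited signal value, a deposited −log10 q value and a summit offset. Ranks are within a list. At the member summits the optimal signal was a median of 0.999 times the sum of both replicate values. Depth is unknown.

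Gene models were those of Ensembl (BDGP6.54), and sequence came from the RefSeq copy of genome release 6. Starts are transcript starts of protein-coding genes unless another kind is named, and a promoter is within 500 bp of one. A replicate's value is its strongest region overlapping the optimal region by 1 bp or more. Python 3.11.15 was used, and the counting was tested on simulated data. The members and lists were chosen with earlier results of these data known. Named are all forkhead genes and, of the insulin and foxo list, the 4 with the highest signal and, of 3 chosen among those without a summit, 2. The other 1 is not reported here. Tor was looked up as mTor. The word GGTCACACT and the merging of close summits were added after seeing the data. With 1 group, no test was made. Lists in build dm3 were not used here.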

Additional observations from a re-analysis of the deposited data

How the results depend on the processing

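The number of members with a summit ranged from 5 to 8 of 10 under the 2 kb, 10 kb, nearest start, region overlap and 1000 strongest peak rules, and was 7 with either replicate left out. It fell to 3 when the summit had to be inside the gene (11.6% of all genes had one there), and the member summits to 14, the same number as with the 1000 strongest peaks. With all pooled candidates there were 78. Leaving out a replicate gave 21 to 26 summits, and counting summits closer than 1 typical region width once, an alternative chosen after seeing the data, gave 21. Of the other forkhead genes, 0 had a summit inside the gene, 1 with the 1000 strongest peaks, 5 with pooled candidates and 2 to 3 with a replicate left out. Of the insulin and foxo list the counts were 9 inside the gene (40.9%), 2 with the 1000 strongest peaks (9.09%, below the 15.0% of all genes) and 14 to 16 with a replicate left out. The strongest member signal was 458 in each replicate alone, at fkh in replicate 2 and at CHES-1-like in replicate 1. The forkhead word was at 7 member summits within 100 bp (30.4%, beside 28.4% of all optimal summits). Within 25 bp it was at 2 (8.70%, beside 9.07%). The longer words GTAAACA or ATAAACA were also at 2 (8.70%, beside 10.1%). No paired analysis was possible because both libraries belong to 1 group. The lists give no read counts, so weak candidates cannot be set against counting error.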

Other observations

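The window of 1 CHES-1-like summit (316, with 187 and 128 in the replicates) lay wholly in sequence that the reference genome marks as repeat or low complexity, as did 4 of all 4434 optimal windows (0.0902%). Its nearest annotated start of any kind was that of the transposable element jockey{}80, at 157 bp. Over the member summits the median share of marked bases was 17.8%, beside 18.8% over all optimal peaks.

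In jumu, the pooled list had a region with its summit 685 bp into the gene, with a signal of 33.2 and rank 19268. The region of replicate 2 that overlapped this pooled region ranked 1965 in that replicate (81.2). No region of replicate 1 overlapped the pooled region.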
